A study of Mus musculus with 12 samples.

Results

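Genes of adult neurogenesis and cell division were followed in the brains of mice without APLP2, which belongs to the same protein family as APP, the amyloid precursor protein. The members were the 9 genes Dcx, Draxin, Igfbpl1, Eomes, Mki67, Top2a, Mcm2, Tubb2b and Nes, chosen by symbol. Every probe set whose annotation gives one of these symbols as its only gene was taken, which gave 20 of the 45037 probe sets tested: 4 for Dcx, 3 each for Top2a and Nes, 2 each for Draxin, Igfbpl1, Eomes and Mcm2, and 1 each for Mki67 and Tubb2b. A further probe set, annotated to Tubb2b together with a pseudogene, was left out. Probe sets of a gene are numbered here in order of their identifier.

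The 12 Affymetrix arrays came from female mice of 38 to 40 weeks on a C57BL/6 background (6 back-cross generations), with 3 mice per genotype in the series design and 1 array for each piece of prefrontal cortex or hippocampus. The APLP2-KO group (APLP2-/-) has its App alleles intact. The APPsα-DM group (APPα/αAPLP2-/-) is also without APLP2 and carries on both alleles an App edited so that, as the allele is generally described, only the secreted ectodomain APPsα is made. Each of the 4 groups of genotype and tissue had 3 arrays, and no wild type was analysed here, so every comparison is between brains that lack APLP2.

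New neurons arise in the adult rodent brain in the dentate gyrus of the hippocampus and in the subventricular zone, from where neuroblasts migrate to the olfactory bulb. Stem cells with the intermediate filament nestin (Nes) give rise to dividing progenitors, which in the dentate gyrus pass through a stage with the transcription factor Eomes (Tbr2). Young neurons then make doublecortin (Dcx), a microtubule-associated protein of migrating cells. Mki67, Top2a and Mcm2 are read in tissue as signs of dividing cells, and dividing cells are rare in the adult cortex outside the glial lineage.

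The genotypes and tissues could be told apart as labelled. App probe set 1 read 12.49 to 12.77 log2 units in the 6 APLP2-KO arrays and 7.70 to 8.20 in the 6 APPsα-DM arrays. App probe set 2 differed less and stayed bright, at 13.38 to 13.50 in APLP2-KO and 11.46 to 11.83 in APPsα-DM. App probe sets 3 and 4 were dim, at 2.49 to 3.44, and did not pass between the genotypes. Aplp2 gave a bright signal in every array, with probe sets 1 and 4 at 9.72 to 10.15 log2 units and none of its 5 probe sets past the threshold between the genotypes. The position of these probe sets relative to the deletion was not analysed here, so the loss of APLP2 is taken from the labels. Of 10 dentate granule cell markers, 9 were called higher in hippocampus in APLP2-KO and 8 in APPsα-DM, and all 9 markers of hippocampal CA neurons were called in both. Of 9 markers of cortical glutamatergic neurons, 8 and 7 were called lower in hippocampus. These lists were chosen with earlier results of these data known, so their counts are not an independent check of the tissues. The pieces also held neighbouring tissue: the summed linear signal of 10 choroid plexus genes ran from 604 to 19948 over the cortex arrays and from 1975 to 23979 over the hippocampus arrays. It was highest among cortex arrays in APPsα-DM cortex 2 and APLP2-KO cortex 3. The array APPsα-DM cortex 3 stood apart for genes of the olfactory bulb, as described with Eomes. It also had the highest summed signal of striatal neuron genes.

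Promoters are shown for Dcx and Top2a, the genes with a probe set called lower in hippocampus (Top2a in APPsα-DM only, at 1 of 3 probe sets), and for Mki67, whose gene is used like Top2a as a mark of division. RefSeq promoters (GRCm38.p6, 250 bases before to 50 after a start) were held for 7 of the 9 members. Capitals mark CCAAT, searched on both strands (ATTGG), and TTTGAA, searched on both strands (TTCAAA), letters that recur in promoters of cell-cycle genes; the sequences are the gene's own strand, which is the minus strand for all 3.
Dcx, chrX:143933170-143933469: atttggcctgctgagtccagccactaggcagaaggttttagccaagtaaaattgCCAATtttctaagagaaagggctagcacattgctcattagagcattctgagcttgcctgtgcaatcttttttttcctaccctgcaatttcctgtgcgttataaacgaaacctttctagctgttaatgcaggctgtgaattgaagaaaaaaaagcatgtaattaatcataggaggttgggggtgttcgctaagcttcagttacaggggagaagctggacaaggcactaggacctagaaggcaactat
Top2a, chr11:99024140-99024439: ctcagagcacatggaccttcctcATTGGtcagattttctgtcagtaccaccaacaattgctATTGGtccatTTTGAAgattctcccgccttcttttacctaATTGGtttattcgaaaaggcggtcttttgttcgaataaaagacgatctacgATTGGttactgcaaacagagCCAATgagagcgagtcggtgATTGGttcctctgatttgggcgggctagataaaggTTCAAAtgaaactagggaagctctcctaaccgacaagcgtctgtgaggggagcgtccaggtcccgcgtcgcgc
Mki67, chr7:135716330-135716629: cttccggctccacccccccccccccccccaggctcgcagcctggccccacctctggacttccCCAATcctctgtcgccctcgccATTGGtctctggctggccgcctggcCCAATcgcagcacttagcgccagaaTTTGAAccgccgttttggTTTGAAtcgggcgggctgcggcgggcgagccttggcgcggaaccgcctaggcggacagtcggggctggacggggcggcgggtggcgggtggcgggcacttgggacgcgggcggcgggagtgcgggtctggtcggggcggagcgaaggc

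The Top2a window held 6 matches to CCAAT and 2 to TTTGAA. The Mki67 window held 3 and 2, and the Dcx window printed here 1 and 0. A second, overlapping Dcx window, chrX:143933075-143933374, also held 1 and 0, with its CCAAT match at another place. Mcm2 held 1 of each, Eomes 2 and 0, and Nes and Draxin none of either. Mouse promoter windows of 300 bases numbered 32851. Of these, 37.4% held at least 1 CCAAT, 11.7% at least 2, 3.37% at least 3 and 0.0791% at least 6. At least 1 TTTGAA was held by 17.9% and at least 2 by 2.31%. Such matches describe the letters and do not show a bound site. 

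Dcx was lower in hippocampus than in prefrontal cortex in both genotypes. Dcx probe set 1 (1418139_at, X chromosome) read 7.66, 7.41 and 7.44 log2 units in APLP2-KO cortex 1, 2 and 3, and 6.82, 6.69 and 6.72 in APLP2-KO hippocampus. In APPsα-DM it read 7.58, 7.49 and 7.72 in cortex and 6.74, 6.62 and 6.66 in hippocampus. All 6 cortex arrays lay above all 6 hippocampus arrays, while within each tissue the genotypes overlapped. The difference, hippocampus minus cortex, was -0.76 ± 0.08 (SE) in APLP2-KO, a 1.69-fold lower signal, with limma's adjusted p = 6.26e-05. In APPsα-DM it was -0.92 ± 0.08, or 1.90-fold, with limma's adjusted p = 1.44e-05.

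Dcx probe set 3 (1418141_at) gave the same order of tissues. It read 7.58, 7.52 and 7.54 in APLP2-KO cortex against 7.00, 6.90 and 6.59 in hippocampus, and 7.70, 7.63 and 8.09 in APPsα-DM cortex against 6.80, 6.52 and 6.90 in hippocampus. The tissues again did not overlap, and the highest array was APPsα-DM cortex 3. The difference was -0.72 ± 0.14 in APLP2-KO (1.64-fold, limma's adjusted p = 0.00363) and -1.06 ± 0.14 in APPsα-DM (2.09-fold, limma's adjusted p = 0.000239). Without APPsα-DM cortex 3 the APPsα-DM difference was -0.92 ± 0.13 (limma's adjusted p = 0.000931). The calls of Dcx probe sets 1 and 3 held under all 15 settings run in each genotype, with differences from -0.80 to -0.68 and from -0.80 to -0.60 in APLP2-KO, and from -0.98 to -0.87 and from -1.15 to -0.92 in APPsα-DM.

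The dimmer Dcx probe sets showed less of this difference. Dcx probe set 4 read 4.69, 4.88 and 4.87 in APLP2-KO cortex and 4.59, 4.72 and 4.66 in hippocampus, groups that overlapped (difference -0.16 ± 0.11, limma's adjusted p = 0.433). In APPsα-DM it read 5.25, 4.79 and 4.98 in cortex and 4.74, 4.52 and 4.53 in hippocampus, without overlap, and fell by 0.41 ± 0.11 (limma's adjusted p = 0.0299). That call ended with only the arrays of the 2 groups (0.0923), without APPsα-DM cortex 1 (0.110) or 3 (0.0622), and without APPsα-DM hippocampus 2 (0.0941) or 3 (0.108). Dcx probe set 2 lay at 3.87 to 4.42 over the 12 arrays, near the lower quartile of all values (4.22), and differed by -0.08 ± 0.14 in APLP2-KO and -0.11 ± 0.14 in APPsα-DM. Ordered by mean, probe sets 1 and 3 ran from APPsα-DM cortex through APLP2-KO cortex and APLP2-KO hippocampus to APPsα-DM hippocampus. Only the step between the tissues was larger than the spread for both. In whole tissue, fewer cells with the transcript and less RNA per cell cannot be told apart.

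**Figure D1:**
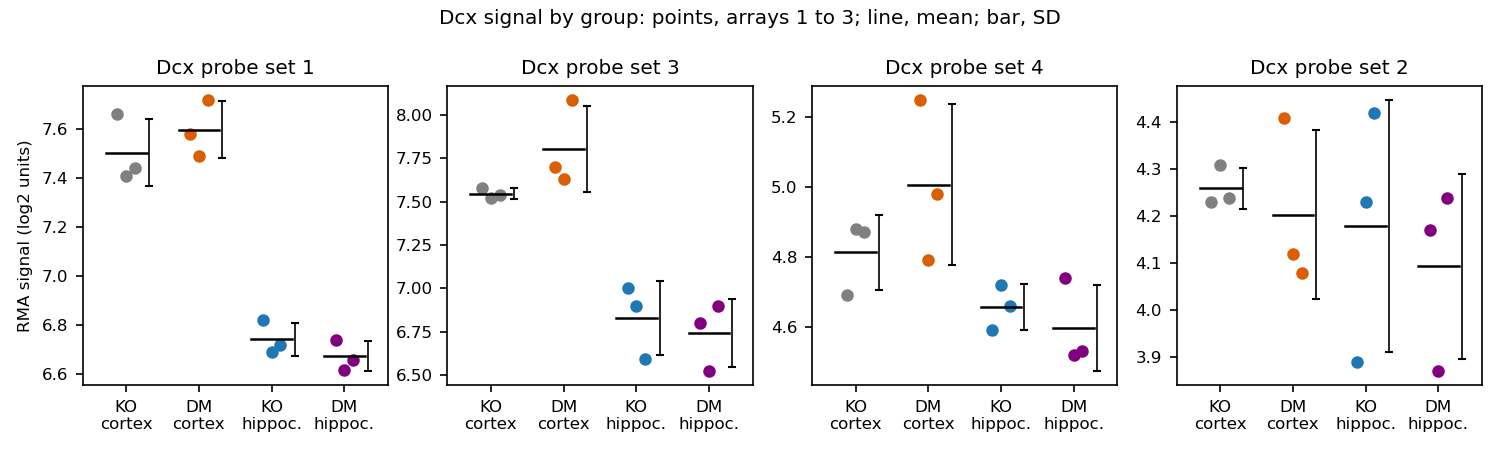
RMA signal (log2 units, own axis per panel) of the 4 Dcx probe sets in the 4 groups; KO is APLP2-KO and DM is APPsα-DM, points are arrays 1 to 3, lines means and bars SD (n = 3). For probe sets 1 and 3 all cortex points, from 7.41 and 7.52 upwards, lie above all hippocampus points, which reach 6.82 and 7.00.

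The 3 genes whose profile over the 12 arrays was most like that of Dcx probe set 3, out of 11635 genes with a mean of at least 6, were Elmo1, Pcdh10 and Ypel2. Likeness was the root mean square difference between profiles centred on their means, and was 0.113, 0.113 and 0.131 log2 units, against 0.482 for the spread of Dcx itself. Their choice by likeness to Dcx over these arrays made a lower signal in hippocampus a given, so it is no separate result. Elmo1, an engulfment and motility adaptor, differed by -0.88 in APLP2-KO and -0.97 in APPsα-DM. Pcdh10, a protocadherin, differed by -0.70 and -0.93. The other 8 members spanned less than 1 log2 unit at their brightest probe set, so no such genes are named for them.

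Other tissue markers differed between the tissues in both directions. Of 9 cortical glutamatergic markers, 8 in APLP2-KO and 7 in APPsα-DM were called lower in hippocampus (list medians -1.49 and -1.25). Of 10 dentate granule cell markers, 9 and 8 were called higher. All 7 striatal neuron genes measured were called lower in hippocampus in both genotypes. Their summed linear signal was 8772 to 10862 in APLP2-KO cortex and 9096 to 13945 in APPsα-DM cortex, against 1989 to 2620 and 2230 to 2694.5 in hippocampus. The top value was that of APPsα-DM cortex 3, and the next was 11290 in APPsα-DM cortex 2. Dcx is also made by some mature neurons, and the part of the cell types in the Dcx difference was not tested.

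Tubb2b, a beta-tubulin that is abundant in young neurons and kept in the adult brain, went the other way. Tubb2b probe set 1 (chromosome 13) read 9.81, 9.74 and 9.62 in APLP2-KO cortex and 10.02, 10.09 and 10.02 in hippocampus, without overlap. It was higher in hippocampus by 0.32 ± 0.09 (1.25-fold, limma's adjusted p = 0.0342). In APPsα-DM it read 9.70, 9.75 and 9.95 in cortex and 9.93, 10.21 and 10.08 in hippocampus, where APPsα-DM cortex 3 reached into the hippocampal range. The difference of 0.27 ± 0.09 did not pass (limma's adjusted p = 0.0756), and without APPsα-DM cortex 3 it was 0.35 ± 0.09 and passed (limma's adjusted p = 0.0362). The APLP2-KO call ended with arrays centred on their medians (0.0635), without APLP2-KO cortex 2 (0.0782) or 3 (0.125), and without APLP2-KO hippocampus 1 (0.0659), 2 (0.118) or 3 (0.0754), and on leaving out both Ttr-rich cortex arrays (0.135). Beta-tubulin genes have near-identical relatives, and whether these probes also bind them was not tested.

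Top2a, the DNA topoisomerase of dividing cells, was lower in APPsα-DM hippocampus than in APPsα-DM cortex at 1 of its 3 probe sets. Top2a probe set 3 (1454694_a_at, chromosome 11) read 5.02, 5.02 and 5.14 in cortex and 4.53, 4.47 and 4.21 in hippocampus, a fall of 0.65 ± 0.15 (1.57-fold, limma's adjusted p = 0.0124). In APLP2-KO it read 4.77, 4.72 and 4.85 in cortex and 4.48, 3.91 and 4.59 in hippocampus. Those groups did not overlap either, but the difference of -0.45 ± 0.15 did not pass (limma's adjusted p = 0.0665). The APPsα-DM call ended without APPsα-DM hippocampus 3 (limma's adjusted p = 0.0611, difference -0.55), the lowest of its group. The APLP2-KO difference passed in only 2 of 14 settings, without APLP2-KO hippocampus 3 and with array weights. Over the settings it ran from -0.70 to -0.24, with limma's adjusted p up to 0.190. The lowest array there was APLP2-KO hippocampus 2, at 3.91. These levels lay below the median of all values, 5.88, and RMA values carry no detection call.

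The other Top2a probe sets, Mki67 and Mcm2 did not pass between the tissues. Top2a probe set 1 lay between 4.83 and 5.13 over all arrays and differed by -0.09 ± 0.07 in APLP2-KO and -0.12 ± 0.07 in APPsα-DM. Top2a probe set 2 lay between 3.58 and 4.11 and differed by -0.20 ± 0.09 and -0.17 ± 0.09, neither past the threshold, with groups that overlapped in APLP2-KO and not in APPsα-DM. Mki67, which encodes the proliferation antigen Ki-67, had 1 probe set at 4.09 to 4.81, near the lower quartile of the array. Its difference was -0.15 ± 0.12 in APLP2-KO (limma's adjusted p = 0.510) and -0.31 ± 0.12 in APPsα-DM (95% interval -0.58 to -0.04, limma's adjusted p = 0.150). It was -0.15 ± 0.10 in APPsα-DM without APPsα-DM cortex 3, which held the highest value. Mcm2, a subunit of the replicative helicase, read 7.28 to 7.58 at probe set 1 and 5.73 to 6.00 at probe set 2. Its differences were 0.10 ± 0.07 and -0.09 ± 0.08 in APLP2-KO, and 0.07 ± 0.07 and 0.08 ± 0.08 in APPsα-DM.

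**Figure D2:**
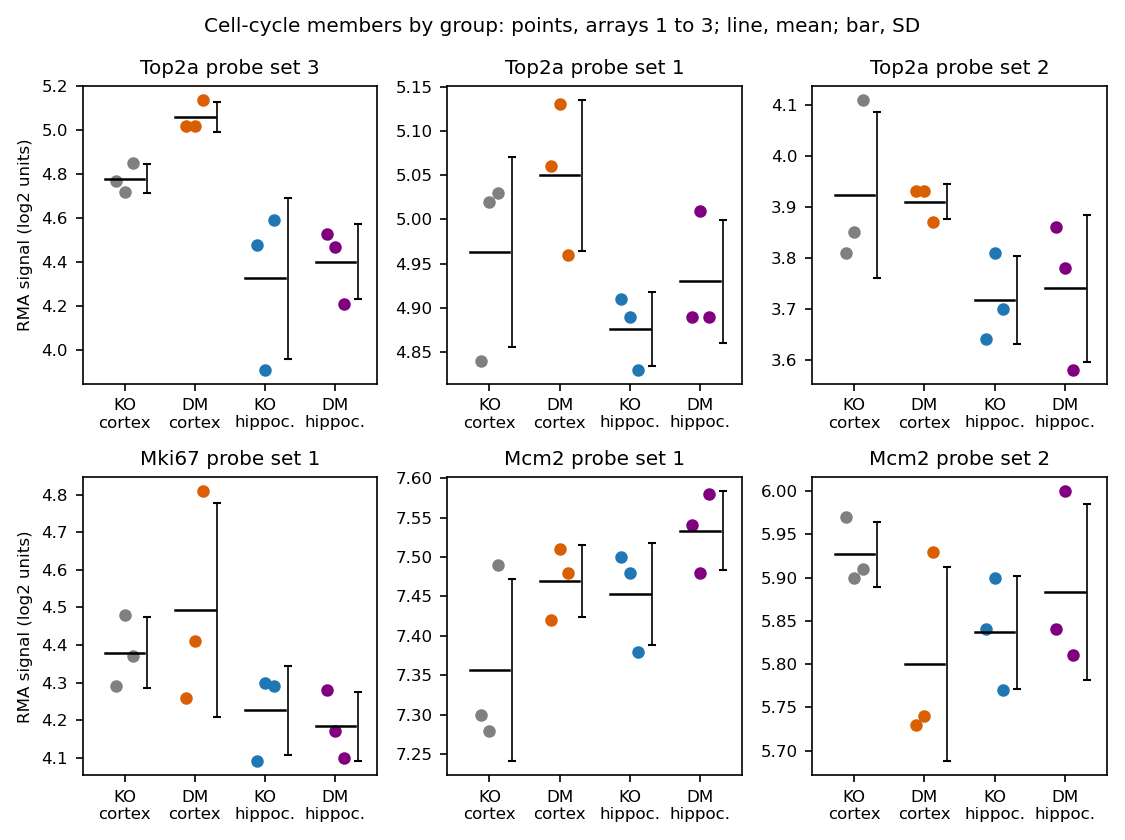
RMA signal (log2 units, own axis per panel) of the Top2a, Mki67 and Mcm2 probe sets in the 4 groups; KO is APLP2-KO and DM is APPsα-DM, points are arrays 1 to 3, lines means and bars SD (n = 3). Top2a probe set 3 shows cortex above hippocampus in both genotypes, 5.06 against 4.41 in APPsα-DM means, while the group means of Mcm2 probe set 1 stay between 7.36 and 7.53.

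Nes, Draxin, Igfbpl1 and Eomes gave no call between the tissues. Nes probe set 2 read 7.38 to 7.69 over the 12 arrays and differed by -0.11 ± 0.08 in APLP2-KO and -0.07 ± 0.08 in APPsα-DM, with 95% intervals of -0.29 to 0.07 and -0.25 to 0.11. Nes probe set 1 read 6.55 to 6.95 and differed by 0.10 ± 0.11 and -0.17 ± 0.11, and probe set 3 was dim, at 2.90 to 3.27. Nestin is also made by blood vessels: of 11 endothelial and pericyte genes, 4 were called lower in hippocampus in APLP2-KO and 0 in APPsα-DM. Of all genes, with 1 probe set a gene, 16.5% and 13.9% were called in either direction. Tie1 was at -0.55 ± 0.14 in APLP2-KO. When the tissue differences of the genotypes were compared directly, 0 of the 11 passed. Igfbpl1, which encodes a secreted protein of the insulin-like growth factor binding family, read 5.30 to 5.95 and 3.98 to 4.78 at its probe sets and differed by -0.27 to -0.08 in the 2 genotypes.

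Draxin, a secreted axon guidance cue, was dim at both probe sets. Draxin probe set 1 (chromosome 4) read 4.65, 4.55 and 4.77 in APLP2-KO cortex, 4.64, 4.69 and 4.98 in APLP2-KO hippocampus, 4.88, 5.04 and 4.77 in APPsα-DM cortex and 4.61, 4.61 and 4.50 in APPsα-DM hippocampus. Hippocampus minus cortex was 0.11 ± 0.10 in APLP2-KO, where the groups overlapped, and -0.32 ± 0.10 in APPsα-DM, where they did not (limma's adjusted p = 0.0634). Probe set 2 differed by -0.21 ± 0.11 and -0.16 ± 0.11. The APPsα-DM difference of probe set 1 passed with array weights and with the mouse as a fixed or random block.

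**Figure D3:**
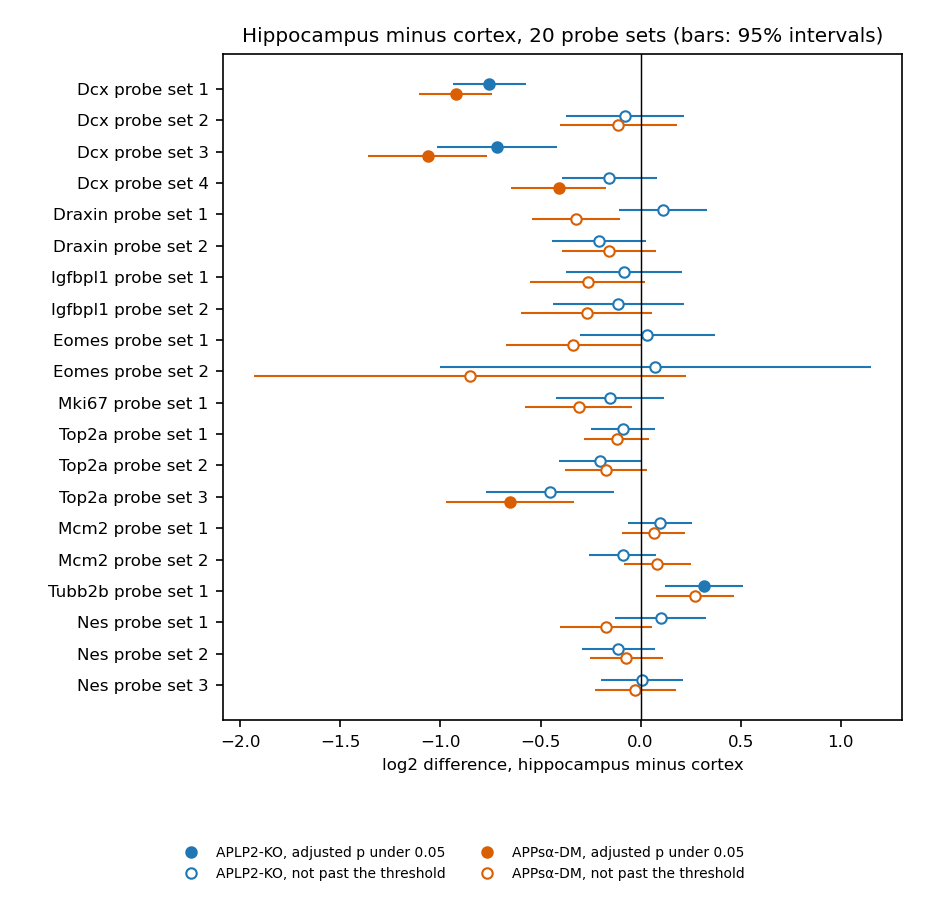
Hippocampus minus cortex (log2 difference, horizontal) for the 20 probe sets in APLP2-KO and APPsα-DM; bars are 95% intervals from limma and filled points passed an adjusted p of 0.05. The filled points are 3 in APLP2-KO (Dcx probe sets 1 and 3, Tubb2b) and 4 in APPsα-DM (Dcx probe sets 1, 3 and 4, Top2a probe set 3).

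Counted over all members, 3 of 20 probe sets passed in APLP2-KO, where 12.6% of all probe sets tested passed. Of these 1 was higher and 2 lower in hippocampus, beside 5.62% and 6.98% of all. In APPsα-DM 4 of 20 passed, against 10.6% of all, and all 4 were lower, as were 5.42% of all. The tissues did not overlap for 4 members in APLP2-KO, against 30.2% of all probe sets, with 1 higher (14.8% of all) and 3 lower (15.5%). They did not overlap for 7 members in APPsα-DM, against 27.4% of all, and all 7 were lower, as were 14.2% of all. Several of the 20 probe sets share a gene, and 3 of the 4 passing in APPsα-DM are of Dcx. The median difference of the members was -0.09 in APLP2-KO and -0.22 in APPsα-DM, beside 0.01 and -0.01 for all probe sets. Below 0 lay 13 and 17 of 20 members. Above 0 lay 7 and 3, against 51.7% and 46.2% of all probe sets. Without APPsα-DM cortex 3 the APPsα-DM median was -0.17. Then 4 members passed, where 9.19% of all probe sets did: Dcx probe sets 1 and 3 and Top2a probe set 3, which were lower, and Tubb2b, which was higher, while Dcx probe set 4 no longer passed. On leaving out the 2 cortex arrays rich in the choroid plexus gene Ttr (APPsα-DM cortex 2 and APLP2-KO cortex 3), 2 members passed in APLP2-KO and 4 in APPsα-DM, where 10.9% and 8.04% of all probe sets did.

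Eomes differed in 1 array rather than between groups. Eomes probe set 2 (1435172_at, chromosome 9) read 3.79 and 4.74 in APPsα-DM cortex 1 and 2 and 6.39 in APPsα-DM cortex 3, while APLP2-KO cortex read 4.24, 3.93 and 4.86. In hippocampus it read 4.93, 3.89 and 4.43 in APLP2-KO and 4.11, 4.24 and 4.01 in APPsα-DM. Eomes probe set 1 was also highest in APPsα-DM cortex 3, at 5.84, with the other 11 arrays at 4.96 to 5.38. No hippocampal array stood out at either probe set.

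Besides progenitors, Eomes marks the mitral and tufted cells of the olfactory bulb, and other genes of the bulb were high in the same array. Tbx21, a transcription factor of those cells, read 5.35 in APPsα-DM cortex 3 and 3.00 to 3.44 in the other 11 arrays. Cdhr1, a cadherin-related gene, read 8.90 there against 5.91 to 6.91 in the other cortex arrays, and Doc2g, a bulb-enriched gene, 7.08 against 5.37 to 5.90. Th, the dopamine synthesis enzyme that bulb interneurons make, read 6.96 against 5.56 to 6.16. Trh, with 6.08 against 5.40 to 5.66, and Calb2, with 9.48 against 7.44 to 8.45, were also highest there. The summed linear signal of the 7 genes of the list, which includes Eomes, was 1618 in APPsα-DM cortex 3, 424 to 702 in the other cortex arrays and 775 to 922 in hippocampus. Sp8, a transcription factor of neuroblasts bound for the bulb and of bulb interneurons, read 6.70 in that array and 4.27 to 5.35 in the other cortex arrays. The part of olfactory tissue in the Eomes signal was not tested.

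**Figure D4:**
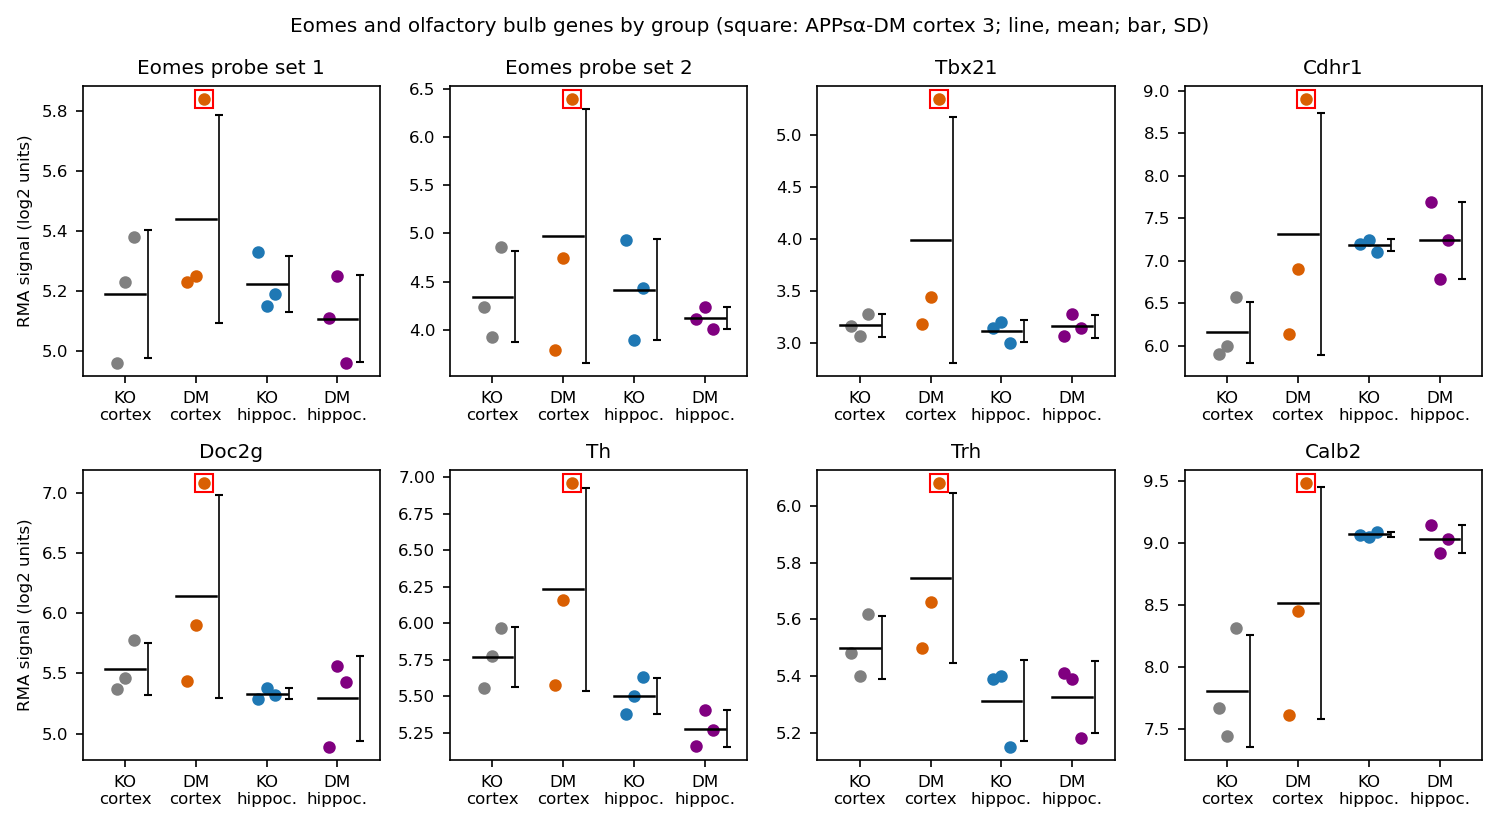
RMA signal (log2 units, own axis per panel) of both Eomes probe sets and 6 olfactory bulb genes in the 4 groups; KO is APLP2-KO and DM is APPsα-DM, points are arrays 1 to 3, lines means, bars SD (n = 3), and the square marks APPsα-DM cortex 3. The marked array is the highest of all 12 in every panel, at 6.39 for Eomes probe set 2 and 5.35 for Tbx21.

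The effect of the edited App on these genes was asked in each tissue, as APPsα-DM minus APLP2-KO. In cortex, 0 of 20 member probe sets passed in limma's test, where 0.00888% of all probe sets did, and 1 of 20 had an unadjusted p under 0.05, where 4.50% of all did. In hippocampus 0 of 20 passed, where likewise 0.00888% of all did, and 0 of 20 had an unadjusted p under 0.05, against 4.11%. No alternative setting gave a member call in either tissue. Over the alternatives the smallest adjusted p of a member was 0.892 in cortex and 0.285 in hippocampus.

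In cortex, 15 of 20 member probe sets lay above 0 with a median of 0.09, beside 51.5% of all probe sets and a median of 0.004. Draxin probe set 1 had the smallest unadjusted p, with 4.66 ± 0.11 in APLP2-KO and 4.89 ± 0.13 in APPsα-DM (mean ± SD, n = 3 each) and a difference of 0.24 ± 0.10 (95% interval 0.02 to 0.46, limma's adjusted p = 1.00). Draxin probe set 2 differed by -0.06 ± 0.11, so the probe sets of the gene did not give 1 sign. Dcx probe set 3 differed by 0.26 ± 0.14 (95% interval -0.04 to 0.56), and by 0.12 ± 0.13 without APPsα-DM cortex 3. Dcx probe set 1 differed by 0.09 ± 0.08 and by 0.04 ± 0.09 without that array. Top2a probe set 3 differed by 0.28 ± 0.15, with 5.02 to 5.14 in APPsα-DM against 4.72 to 4.85 in APLP2-KO, and by 0.24 ± 0.17 without that array.

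Eomes probe set 2 had the widest cortical difference, 0.63 ± 0.50, and turned to -0.08 ± 0.34 without APPsα-DM cortex 3. Eomes probe set 1 went from 0.25 ± 0.16 to 0.05 ± 0.12, and Mki67 from 0.11 ± 0.12 to -0.05 ± 0.10. In that array Eomes and Mki67 were each the highest of the 12. Nes probe set 2 differed by -0.01 ± 0.08 and Tubb2b by 0.08 ± 0.09, with intervals of -0.19 to 0.17 and -0.12 to 0.27. In cortex 3 of 20 members had genotypes whose arrays did not overlap: Dcx probe set 3, Draxin probe set 1 (by less than the second decimal) and Top2a probe set 3, all higher in APPsα-DM. Of all probe sets 8.73% did not overlap, 4.07% with APPsα-DM higher. Without APPsα-DM cortex 3, 16 of 20 lay above 0 and the median was 0.08.

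In hippocampus, 9 of 20 member probe sets lay above 0, against 48.8% of all probe sets, with a median of -0.03 beside -0.003 for all. The bright Dcx probe sets 1 and 3 differed by -0.07 ± 0.08 and -0.09 ± 0.14, with 95% intervals of -0.26 to 0.11 and -0.39 to 0.21, so that a change of more than 1 log2 unit in either direction lay outside them. Draxin probe set 1 differed by -0.20 ± 0.10, Nes probe set 1 by -0.19 ± 0.11 and Igfbpl1 probe set 1 by -0.17 ± 0.13. Mki67 differed by -0.04 ± 0.12, Top2a probe set 3 by 0.08 ± 0.15 and Mcm2 probe set 1 by 0.08 ± 0.07. Draxin probe set 1 and Igfbpl1 probe set 1 were the 2 of 20 whose genotypes did not overlap, both lower in APPsα-DM. Of all probe sets 9.88% did not overlap, 5.78% with APPsα-DM lower. Beside the Nes values, the summed linear signal of 11 endothelial and pericyte genes was 5484 to 5717 in APLP2-KO hippocampus and 6143 to 6894 in APPsα-DM hippocampus, and its part in them was not tested.

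**Figure D5:**
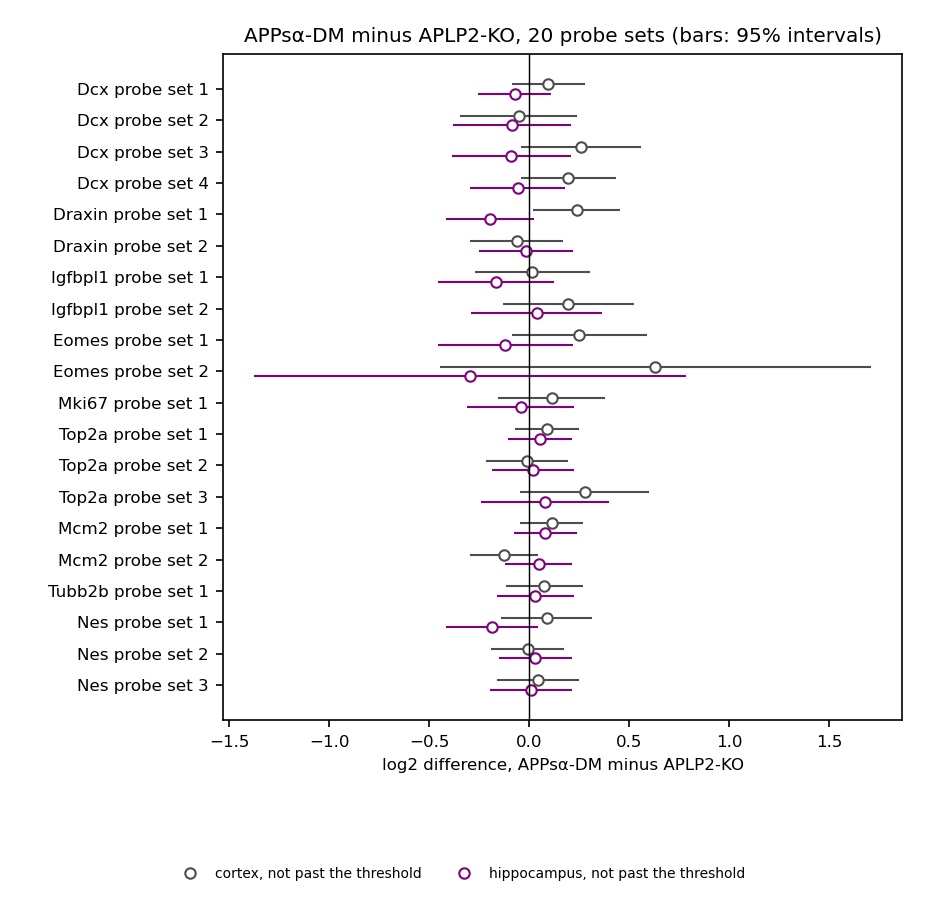
APPsα-DM minus APLP2-KO (log2 difference, horizontal) for the 20 probe sets in cortex and hippocampus; bars are 95% intervals from limma, and open points did not pass an adjusted p of 0.05. All points are open, and the widest interval is that of Eomes probe set 2, from -0.45 to 1.71 in cortex.

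The genotype effects of the tissues were compared directly. The difference of the effects (hippocampus minus cortex) passed for 0 of 20 members and for 0% of all probe sets, and 1 of 20 members had an unadjusted p under 0.05, against 3.79% of all. That member was Draxin probe set 1, at -0.43 ± 0.14 (limma's adjusted p = 1.00), and -0.50 ± 0.15 without APPsα-DM cortex 3. Dcx probe set 3 was at -0.35 ± 0.19 and Nes probe set 1 at -0.27 ± 0.15. The tissue differences of Dcx, Top2a and Tubb2b were thus not shown to differ between the genotypes.

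Other genes of the pathway came from lists with 1 probe set a gene, for which 16.5% of 18193 genes passed between the tissues in APLP2-KO and 13.9% in APPsα-DM. Among 15 genes of neural stem cells and radial glia, 3 were called higher in hippocampus in APLP2-KO and 1 in APPsα-DM, and 0 lower. Hopx, which marks quiescent stem cells and is also made by astrocytes, was higher by 0.95 ± 0.07 and 0.93 ± 0.07 (limma's adjusted p = 3.49e-06 and 5.01e-06). Fabp7 and Vim, genes of radial glia and astrocytes, were called higher in APLP2-KO by 0.69 ± 0.18 and 0.50 ± 0.15. In APPsα-DM neither was called. There Fabp7 read 9.05 to 9.94 in cortex and 10.01 to 10.06 in hippocampus, and Vim 9.11 to 9.21 and 9.30 to 9.93.

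Among 17 genes of neuronal progenitors and neuroblasts, 5 were called higher and 2 lower in hippocampus in APLP2-KO, and 3 higher and 3 lower in APPsα-DM. Neurod1, a transcription factor of young granule cells that mature ones keep, was higher by 1.35 ± 0.15 and 1.47 ± 0.15 (limma's adjusted p = 5.72e-05 and 3.57e-05). Stmn1, a microtubule regulator of growing neurons, was lower by -0.63 ± 0.09 and -0.65 ± 0.09. Cd24a was higher by 0.61 ± 0.16 and 0.60 ± 0.16 (limma's adjusted p = 0.0273 and 0.0331). Calb2 was called higher in APLP2-KO by 1.26 ± 0.35, and in APPsα-DM it read 7.61 to 9.48 in cortex and 8.92 to 9.14 in hippocampus. Dlx2, a factor of GABAergic neuroblasts, was called lower in APPsα-DM by -0.61 ± 0.13, with APPsα-DM cortex 3 its highest array at 8.06. In APLP2-KO Dlx2 read 7.39 to 7.72 in cortex and 7.05 to 7.40 in hippocampus. The median of the list was 0.07 in APLP2-KO and 0.10 in APPsα-DM, beside -0.01 and -0.02 for all genes, with 11 and 9 of 17 genes above 0.

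Of 29 genes of DNA replication and the cell cycle, 2 were called higher and 3 lower in hippocampus in APLP2-KO. In APPsα-DM 1 was called higher and 4 lower. Of all genes 16.5% and 13.9% were called in either direction. Mcm6, like Mcm2 a helicase subunit, was higher by 1.04 ± 0.12 and 1.18 ± 0.12 (limma's adjusted p = 0.000118 and 4.99e-05). Mcm5, another subunit, was lower by -0.64 ± 0.11 and -0.55 ± 0.11, and E2f1, a factor that drives S-phase genes, by -0.77 ± 0.11 and -0.81 ± 0.11. Mcm6 and Mcm5 thus differed in opposite directions while Mcm2 did not pass. For the other subunits of the list, Mcm3, Mcm4 and Mcm7, the tissues overlapped in APLP2-KO. Mcm4 read 7.61 to 7.80 there in cortex and 7.56 to 7.72 in hippocampus. In APPsα-DM Mcm3 and Mcm4 overlapped, and Mcm7 read 8.30 to 8.52 in cortex and 8.17 to 8.29 in hippocampus. Oligodendrocyte precursors are the main dividing cells of the adult cortex, and of 8 of their genes only Pdgfra was called, higher in APLP2-KO hippocampus by 0.24 ± 0.07. In APPsα-DM Pdgfra was at 0.14 ± 0.07 and was not called (limma's adjusted p = 0.269).

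Between the genotypes none of these stem cell, neuroblast and cell-cycle genes passed in limma's test in either tissue (0 of 15, 0 of 17 and 0 of 29 in each), where 0.0110% of genes passed. Neurog2, a progenitor factor, was at -0.26 ± 0.09 in cortex and -0.38 ± 0.09 in hippocampus. Bub1, a mitotic checkpoint kinase, was at 0.32 ± 0.13 in cortex. Its cortex arrays read 2.94 to 3.58, below the lower quartile of all values (4.22). Of the other cell-cycle genes, Cenpa was at -0.20 ± 0.09 in cortex. In hippocampus Cenpf was at 0.17 ± 0.09 and Cenpe at -0.23 ± 0.13. Prom1, a stem cell surface gene, was at 0.21 ± 0.10 in cortex and 0.29 ± 0.10 in hippocampus. Pax6, a stem cell factor, was at 0.21 ± 0.10 in cortex and -0.29 ± 0.10 in hippocampus. Sp8 was at 0.80 ± 0.38 in cortex, where APPsα-DM cortex 3 was the highest array.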

How the data were processed

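Total RNA of 12 tissue pieces was labelled with biotin from 1 µg and hybridised to 1 array each, per the labels' protocols. The deposited values are on a log2 scale (1.80 to 14.36 over the tested probe sets) and were made by the authors with RMA in the affy package, per the submitters' processing notes; versions, the calling of detection and whether all arrays were normalised together are not stated in the labels or notes used. Array medians lay between 5.86 and 5.91. Leaving out 64 controls gave 45037 probe sets, with no filter on signal. The platform annotation gave 1 symbol for 34945 of them, several for 932 and none for 9160.

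In R 4.3.3, limma 3.58.1 fitted 4 group means over 12 arrays (lmFit, eBayes; 8 residual and 4.25 prior degrees of freedom), two-sided, with Benjamini-Hochberg adjustment over all 45037 and a threshold of 0.05 on the adjusted p. Errors of differences are moderated SE. The fit was tested on simulated data. Alternatives were the arrays of the compared groups only, a trended robust prior, probe sets with a mean of at least 6, median centring, array weights, blocks, and leaving out each array; leaving out both cortex arrays high in Ttr was chosen after seeing the data. The members and gene lists were chosen with earlier results of these data known. All members were named, with 1 probe set a gene (highest mean) for the lists, of which 157 of 166 entries were measured. From each list up to 4 called genes with the largest change could be named, or up to 2 with the smallest p. Same-group arrays correlated at r = 0.9947 to 0.9972, and their number limits the precision. The labels do not say how numbers link cortex and hippocampus of a mouse, so p-values measure the spread between these samples.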

Additional observations from a re-analysis of the deposited data

How the results depend on the processing

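The genotype comparisons gave 0 member calls under every alternative run, in cortex, in hippocampus and for the difference between them. Leaving out single arrays gave 2 to 3 member calls between the tissues in APLP2-KO, where 9.01% to 11.1% of all probe sets passed, and 2 to 5 in APPsα-DM, where 7.42% to 9.62% did. In APPsα-DM the count of 4 fell to 2, Dcx probe sets 1 and 3, without APPsα-DM hippocampus 3. The other alternatives gave 2 to 4 member calls in APLP2-KO, with 10.9% to 27.3% of all probe sets tested passing, and 3 to 5 in APPsα-DM, with 8.04% to 21.9%. With probe sets of a mean under 6 left out, only 6 of the 20 members were tested, and Dcx probe set 4 and Top2a probe set 3 were not among them. No called difference reversed. With a mouse (genotype and replicate number) as a replicate block, 3 members passed in APLP2-KO and 5 in APPsα-DM, and with the number as a block within a tissue 0 passed between the genotypes in each. The call added by the mouse block in APPsα-DM was Draxin probe set 1. The main tests treated all arrays as independent, because the labels do not say how numbers link the tissues of a mouse. Deviations from group means correlated at 0.02 to 0.16 between cortex and hippocampus of a number, each array best with its own number. These values are therefore no ground for leaving the mouse out of the tissue tests. Between genotypes of a number the correlations ran from -0.25 to 0.21. With 3 arrays a group, the median SE of a member's difference within a tissue was 0.11, and dim probe sets (Mki67, Draxin, Nes probe set 3) carry no detection call.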
